A study of Mus musculus with 2 samples.

Results

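Of the 498 nuclear FoxO3 peaks called in C2C12 myoblasts, 397 had no overlap of 1 bp or more with any of the 45457 peaks called in myotubes. These 397 peaks, chosen by the called positions of the peaks in both lists, are described here. The other 101 nuclear myoblast peaks overlapped a myotube peak and are called shared, and the 3 mitochondrial myoblast peaks were left aside. C2C12 is a mouse myoblast line that divides in serum-rich growth medium and fuses into myotubes in differentiation medium with little horse serum. The myoblast cells were taken at hour -24, in growth medium before the switch, and the myotube cells at hour 72 of differentiation medium. The labels give no genetic change or drug for either, and the same anti-Foxo3 antibody served for both. The source label names both as C2C12 myoblasts, and only the time label and the series' own design text separate the later sample as myotubes. There was 1 library per time point, so no value carries a replicate error and no difference between conditions was tested.

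FoxO3 is a forkhead transcription factor that insulin and growth factor signalling keep out of the nucleus through phosphorylation by AKT. In skeletal muscle it is best known for driving genes of the ubiquitin-proteasome and autophagy pathways when nutrients or growth factors are short. ChIP-seq peaks mark stretches where fragments recovered with the antibody pile up over the local background, and a peak is listed only when that excess passes the caller's threshold.

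The rule itself placed 79.7% of nuclear myoblast peaks (397 of 498, Wilson 95% interval 76.0% to 83.0%) in this set. That share is a description of how the set was made. Absence from the myotube list is absence of a called peak, since the lists hold called peaks only and no read coverage was used. At the commonest background of the myotube list, 1.51 reads, the lowest pileup that was listed was 8 reads (fold 5.29). At the commonest background of the myoblast list, 0.44 reads, the lowest was 6 reads (fold 13.52). These commonest backgrounds are called the floor of each list. Recovered backgrounds of nuclear myotube peaks went down to 1.03 reads, so the floor of that list is not its lowest value. Backgrounds and pileups are read numbers recovered from the deposited fold and p-value of each peak.

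The limit of the rule fell among peaks with few reads, like nearly all of the set (positions throughout are on build mm9, counted from 1). Just inside it, a peak at chr5:130622226-130622301 (fold 13.52, 6 reads) lay 2 bp from the edge of a myotube peak. The peak at chr4:116793313-116793388 (fold 12.84, 7 reads) lay 7 bp away. The peak at chr12:87086684-87086759 (fold 13.52, 6 reads) lay 19 bp away, as did the tied peak at chr14:34116679-34116754 (fold 18.34, 10 reads). Just outside it, the peak at chr11:101614640-101614715 (fold 18.03, 8 reads) shared 13 bp with a myotube peak. Those at chr8:86725619-86725730 (fold 11.15, 10 reads) and at chr3:19794860-19794935 (fold 11.43, 6 reads) shared 32 bp and 38 bp. All of them had 6 to 10 reads.

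The myoblast peaks without a myotube overlap rested on very few reads. Their recovered pileup at the summit had a median of 8 reads (quartiles 7 and 10, range 6 to 38), and 387 of 397 (97.5%, Wilson interval 95.4% to 98.6%) had 12 reads or fewer. The background was at the floor for 257 of them (64.7%, 59.9% to 69.3%), so their folds fell on a ladder with 1 step per read. At floor background, 100 peaks had a fold of 18.03 (8 reads), 47 had 22.53 (10 reads), 36 had 13.52 (6 reads), 33 had 15.77 (7 reads) and 26 had 20.28 (9 reads). The fold of all 397 had a median of 18.03 (quartiles 14.5 and 20.28, range 3.03 to 31.55). Their −log10 q-value had a median of 3.84 (quartiles 2.98 and 5.41, range 2.01 to 12.3). It reached 5 in 104 of them (26.2%, 22.1% to 30.7%) and 10 in 2 (0.504%, 0.138% to 1.82%).

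Shared peaks spanned a much wider range of reads. Their pileup had a median of 14 (quartiles 8 and 60, range 6 to 303), and 49 of 101 (48.5%, 39.0% to 58.1%) had 12 reads or fewer. Read the other way, 387 of the 436 nuclear myoblast peaks with 6 to 12 reads had no myotube overlap (88.8%, 85.5% to 91.4%). Among the 62 with more than 12 reads, 10 had none (16.1%, 9.004% to 27.2%). Within the narrow range from 6 to 12 reads the share without an overlap did not follow the read number step by step. It was 93.2% at 6 reads (55 of 59), 82.1% at 7 (46 of 56), 91.9% at 8 (137 of 149), 85.4% at 9 (41 of 48), 87.2% at 10 (75 of 86), 83.3% at 11 (20 of 24) and 92.9% at 12 (13 of 14). Each even read number thus had a higher share than its odd neighbours, with few shared peaks at each. This difference was not tested.

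Even read numbers were more frequent than odd ones. Of the 397 peaks, 285 (71.8%, Wilson interval 67.2% to 76.0%) had an even pileup: 137 peaks had 8 reads, against 46 with 7 and 41 with 9, and 75 had 10 reads, against 20 with 11. The excess was also present among peaks at floor background (188 of 257, 73.2%, 67.4% to 78.2%). It was present among peaks of the smallest width (222 of 305, 72.8%, 67.5% to 77.5%) and among wider ones (63 of 92, 68.5%, 58.4% to 77.1%). At 6 and 7 reads the split was nearly even, with 55 and 46 peaks. Nuclear myotube peaks had mostly larger read numbers, with 14.8% at 12 reads or fewer against 97.5% of the set, so the lists compare at unlike pileups. Of all 45454, 50.03% had an even pileup (49.6% to 50.5%). Among shared peaks with 6 to 12 reads and no raised background, 28 of 48 did (58.3%, 44.3% to 71.2%), against 278 of 385 for the peaks without overlap (72.2%, 67.5% to 76.4%), and these intervals overlap. The source of the excess was not tested. The labels describe paired-end libraries, and whether both mates of a fragment entered a pileup is not given in the sources used here. Read numbers may therefore exceed the number of separate fragments, and may not be one unit in both lists.

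**Figure D1:**
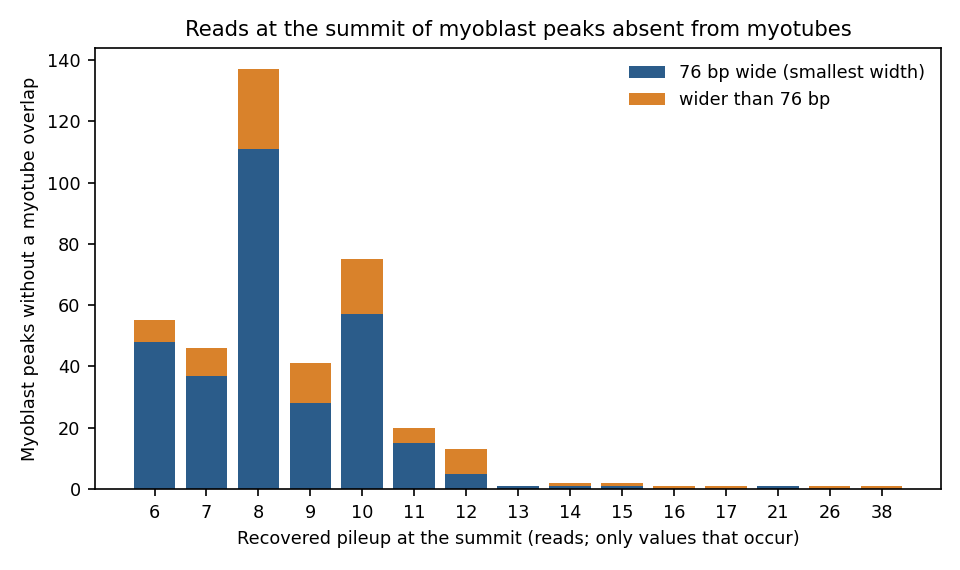
Number of nuclear myoblast peaks without a myotube overlap (vertical axis) at each recovered pileup in reads (horizontal axis, only values that occur), split into peaks of the smallest width (76 bp, blue) and wider peaks (orange). The bars at 8 reads (137 peaks) and 10 reads (75 peaks) stand above their odd neighbours at 7, 9 and 11 reads (46, 41 and 20 peaks).

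Most of these peaks had exactly the smallest width in the myoblast list. That width was 76 bp, and 305 of 397 had it (76.8%, Wilson interval 72.4% to 80.7%), against 32 of 101 shared peaks (31.7%, 23.4% to 41.3%). The other 92 ranged from 77 to 170 bp with a median of 104 bp, and shared peaks reached 1859 bp. The gap narrowed among peaks of like strength. With 6 to 12 reads and no raised background, 301 of 385 peaks without overlap (78.2%, 73.8% to 82.0%) and 29 of 48 shared peaks (60.4%, 46.3% to 73.0%) had the smallest width. A narrow peak also has less length with which to meet a myotube peak, so width is not independent of the rule. Within the set, the smallest width was found at 84.2% of peaks with 6 to 7 reads (85 of 101), 78.1% with 8 to 9 reads (139 of 178), 71.3% with 10 to 12 reads (77 of 108) and 4 of 10 with more.

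The summit lay anywhere along the narrow peaks. At those of the smallest width its offset from the peak start ranged from 0 to 74 bp with a median of 33 bp (quartiles 18 and 48). At wider ones it lay at a median of 42.4% of the width (quartiles 26.4% and 55.7%). The median fold was 18.03 in both width classes. Such a tie says little, since 100 peaks of the set had exactly this fold. Fold quartiles were 14.67 and 20.28 in the narrow class and 13.5 and 20.7 in the wide class, so they did not rank the classes. Median pileup was 8 reads in the narrow class and 9 reads in the wide class. The −log10 q-value had its upper quartile at 4.97 in the narrow class and 6.26 in the wide class.

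The widest peak of the set was at chr10:117312820-117312989 (170 bp, fold 18.03, 8 reads). The next were at chrX:33561386-33561554 (169 bp, fold 13.52, 6 reads) and at chr1:89672475-89672641 (167 bp, fold 18.03, 8 reads). After these came the peaks at chr11:3027001-3027164 (164 bp, fold 4.74, 17 reads) and chr5:138557340-138557502 (163 bp, fold 14.67, 8 reads). None of these 5 was among the 10 of highest fold, and the chromosome 11 peak had raised background.

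At chr8:19782603-19782682 stood the peak of highest fold, 31.55 from 14 reads over 80 bp. Its summit was 2030 bp from a myotube summit, in a peak from 19784374 to 19784844 of fold 27.07 (84 reads). That myotube peak in turn overlapped a shared myoblast peak from 19784413 to 19784796 (fold 10.59, 19 reads over a background of 1.79). The peak of highest fold thus had a site listed at both times beside it.

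Below it, 4 peaks tied at a fold of 27.04 with 12 reads each. They lay at chr1:84991266-84991341, chr4:116318313-116318389, chr12:25777270-25777356 and chr16:31645452-31645556. Their surroundings differed. The chromosome 4 peak was 1195 bp from a myotube summit of fold 27.23 (45 reads) and the chromosome 16 peak was 3448 bp from one of fold 18.47 (31 reads), inside a cluster of 4 myotube peaks. The chromosome 12 peak was 35661 bp from the nearest myotube summit (fold 6.61, 10 reads) and the chromosome 1 peak was 113049 bp away (fold 6.19, 32 reads).

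The next 2 had a fold of 25.16 and 12 reads. The peak at chr1:58735421-58735524 was 34071 bp from a myotube summit, and the peak at chr4:136205112-136205221 was 846 bp from one of fold 9.41. At a fold of 24.79 (11 reads) there were 10 tied peaks, of which the first 3 by position complete the 10 named. They lay at chr2:119919737-119919842 (163 bp from a myotube summit), at chr2:129122634-129122709 (28981 bp) and at chr3:92881303-92881409 (203389 bp). A high fold in this set therefore went with distances from 163 bp to 203389 bp.

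Raised background, defined as more than 3 times the floor (over 1.32 reads), was found at 9 of 397 peaks (2.27%, Wilson interval 1.20% to 4.25%), against 38 of 101 shared peaks (37.6%, 28.8% to 47.4%). Of all 47 nuclear myoblast peaks with raised background, 19.1% (10.4% to 32.5%) were therefore without an overlap, against 388 of the other 451 (86.0%, 82.5% to 88.9%). Fold is the pileup over the background, so picking listed peaks by a high background favours more reads and lower folds by construction. The 9 had 10 to 38 reads with a median of 16, against 8 over the whole set. Their folds were 3.03 to 10.21 with a median of 6.05, against 18.03. The peak with the most reads and the highest −log10 q-value of the whole set, 38 reads and 12.3, was one of them. It lay at chr8:19922667-19922749 with a fold of only 6.05 over a background of 6.28 reads. The peak of highest fold, at chr8:19782603-19782682, lay in the same stretch of chromosome 8. Shared peaks with raised background (1.79 to 3.59 reads) were also listed there, between 19719561 and 20020506.

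The highest background in the set, 8.58 reads, was at a peak at chr11:3068874-3068989 (fold 3.03, 26 reads). A peak at the lowest coordinate of either list on that chromosome, from 3027001 to 3027164, had a background of 3.59 reads. The peak at chr17:3077920-3077995 (fold 7.81, 21 reads over 2.69) was likewise the first listed on its chromosome. These 3 raised-background peaks stood at the low-coordinate end of a chromosome, which in mouse is the centromeric end. The others lay at chr8:71942790-71942913 (15 reads over 3.59) and from 97381130 to 97381247 (12 over 1.79), at chr5:15215151-15215226 (15 over 1.79), at chr2:181560268-181560357 (10 over 1.79) and at chr1:87521485-87521561 (16 over 1.57).

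**Figure D2:**
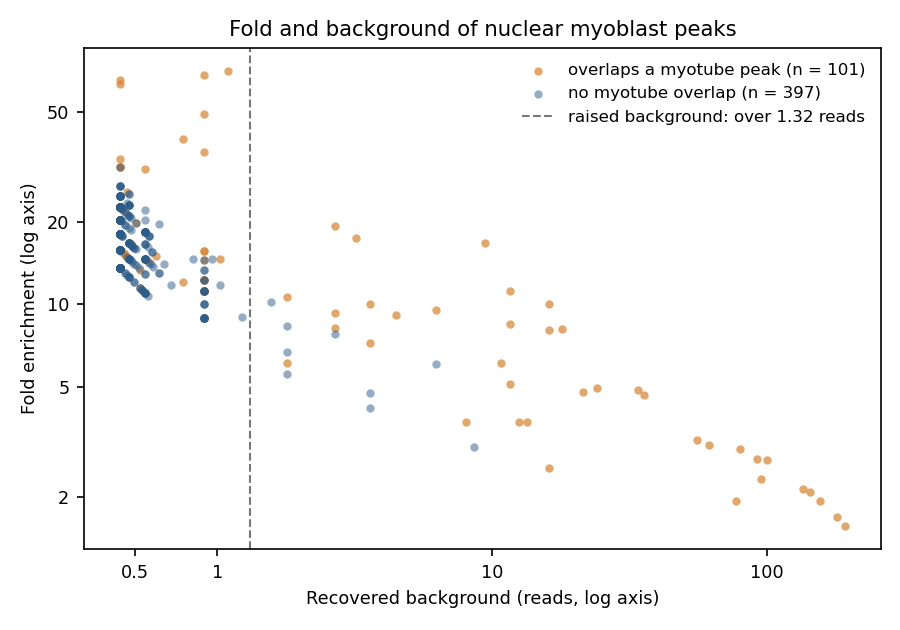
Fold enrichment (vertical, log axis) against recovered background in reads (horizontal, log axis) for each nuclear myoblast peak, without a myotube overlap (blue, 397) or shared (orange, 101); the dashed line marks raised background (over 1.32 reads). Blue points gather at the left in short ladders of fold near the floor of 0.44 reads, and 9 of them lie to the right of the line, where 38 shared peaks lie.

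Distances to the nearest myotube peak ranged widely. The distance from their summit to the nearest myotube summit had a median of 10273 bp (quartiles 2129 and 29860 bp, range 83 to 2886326 bp). Within 0.5 kb of a myotube summit lay 34 peaks (8.56%, Wilson interval 6.19% to 11.7%), within 1 kb 62 (15.6%), within 5 kb 141 (35.5%) and within 10 kb 195 (49.1%, 44.2% to 54.0%). Beyond 100 kb lay 41 (10.3%, 7.70% to 13.7%), of which 2 were over 1000 kb away. The nearest myotube summit was at the higher coordinate for 193 peaks and at the lower for 204. The share of length within each of these distances of a myotube summit is not given here. These counts therefore do not show whether the set lies nearer to myotube peaks than other positions do.

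**Figure D3:**
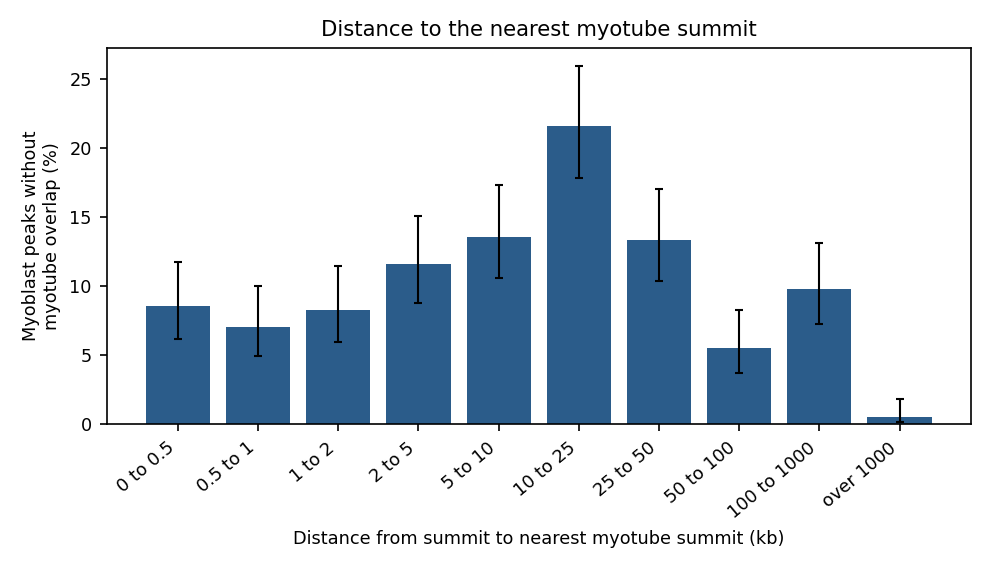
Share of the 397 myoblast peaks without a myotube overlap (vertical axis, percent) by distance from their summit to the nearest myotube summit (horizontal axis, kb, in classes of unequal width); bars show the share and lines its Wilson 95% interval. The fullest class is 10 to 25 kb (86 peaks, 21.7%), and 34 peaks (8.56%) lie within 0.5 kb.

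Peaks on either side of 10 kb were alike in most of what was measured. The 195 peaks within 10 kb and the 202 farther away both had a median fold of 18.03 and a median of 8 reads. These medians could hardly differ, since 100 of the 397 peaks had exactly both values. The lower quartiles were a fold of 13.52 and 7 reads within 10 kb, and 15.77 and 8 reads farther away. The smallest width was found at 148 of the 195 (75.9%, 69.4% to 81.4%) and 157 of the 202 (77.7%, 71.5% to 82.9%). Even pileups made up 67.7% (60.8% to 73.9%) and 75.7% (69.4% to 81.1%). Split by reads, 54.5% of peaks with 6 to 7 reads (44.8% to 63.8%), 46.6% with 8 to 9 (39.4% to 54.0%) and 47.2% with 10 to 12 (38.1% to 56.6%) were within 10 kb. All of these intervals overlap within each comparison.

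The 5 nearest peaks all had the smallest width, which 76.8% of the whole set had. They lay at chr15:57844554-57844629 (83 bp between summits, fold 14.27), chr14:34116679-34116754 (126 bp, fold 18.34) and chr17:64298735-64298810 (139 bp, fold 14.07). The others were the chromosome 4 peak at 116793313 named above (145 bp) and a peak at chr10:8515158-8515233 (151 bp, fold 22.53). The myotube peaks beside them were modest, with folds from 5.16 to 8.72 and widths from 122 to 223 bp. At these sites both lists held a peak with 7 to 44 bp between them and no shared base. Summits so close with no shared base leave little room for wide peaks, so the rule favours narrow ones here.

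The 5 farthest peaks also had the smallest width, again the width of most of the set. Their folds were not low. On chromosome X, the peak from 123259851 to 123259926 (fold 22.53, 10 reads) was 2886326 bp from the nearest myotube summit and the peak from 124468944 to 124469019 (fold 18.03, 8 reads) was 1677248 bp away. Both had the same nearest myotube peak. The remaining 3 lay at chr2:96351966-96352041 (954519 bp, fold 16.77), chr11:15284399-15284474 (884598 bp, fold 22.53) and chr8:99230086-99230161 (726834 bp, fold 20.28).

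The myotube peaks nearest to the set were ordinary in strength but more often isolated. There were 393 of them, since some were nearest to more than 1 myoblast peak, and their median fold was 8.59, the same as over all nuclear myotube peaks. Their median pileup was 19 reads against 18, and their median width 180 bp against 186 bp. With myotube peaks joined at 12 kb, 214 of the 393 (54.5%, Wilson interval 49.5% to 59.3%) were not joined to any other, against 30.5% of all nuclear myotube peaks. Clusters of 3 or more held 99 (25.2%, 21.2% to 29.7%), against 50.5% of all. A nearest peak is picked by its position and not at random from the list, so the 2 shares do not compare like with like.

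A minority of the set fell inside myotube clusters of 3 or more peaks. The summit lay within the span of a cluster of 3 or more myotube peaks at 33 of 397 (8.31%, Wilson interval 5.98% to 11.4%), and within a cluster of 2 at 15. These spans of 3 or more made up 2.74% of the length between the first and last listed peaks of the chromosomes. The 8.31% of the set inside them was above this share of length, a difference that was not tested. Of the 101 shared peaks 58 lay in such a span, a share the rule helps to fix because every shared peak overlaps a myotube peak. Another 39 peaks of the set lay outside these spans but within 12 kb of one, giving 72 in all (18.1%, 14.7% to 22.2%). The 33 inside had a median distance of 795 bp to a myotube summit (range 163 to 4807 bp), a median fold of 18.03 and 6 to 12 reads, and none had raised background.

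A single peak of the set lay in 1 of the 107 dense clusters of 20 or more myotube peaks (0.252%, 0.0445% to 1.41%). It was at chr10:62754374-62754449 (76 bp, fold 19.57, 12 reads), 417 bp from the summit of a myotube peak of fold 8.54, in a cluster of 21 peaks from 62713916 to 62785523. The next largest clusters that held one were chosen for mention after their values were seen. They had 13 peaks, at chr6:127915656-127957799, 11 peaks, at chr1:89657758-89684083, and 10 peaks, at chr1:94666081-94696573. The myoblast peaks in them had folds of 18.03, 18.03 and 12.76. The 107 dense clusters covered 0.288% of the length between the first and last listed peaks, close to the 0.252% of the set found in them.

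The wider surroundings held a few myotube peaks as a rule. Within 50 kb of the summit the median number of myotube summits was 3 (quartiles 1 and 6, highest 40), and 63 peaks (15.9%, 12.6% to 19.8%) had none. Around shared peaks the median was 5 (quartiles 3 and 9, highest 15), counting the overlapping peak itself. At least 10 myotube summits stood around 33 peaks of the set (8.31%, 5.98% to 11.4%) and around 23 shared peaks (22.8%, 15.7% to 31.9%).

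**Figure D4:**
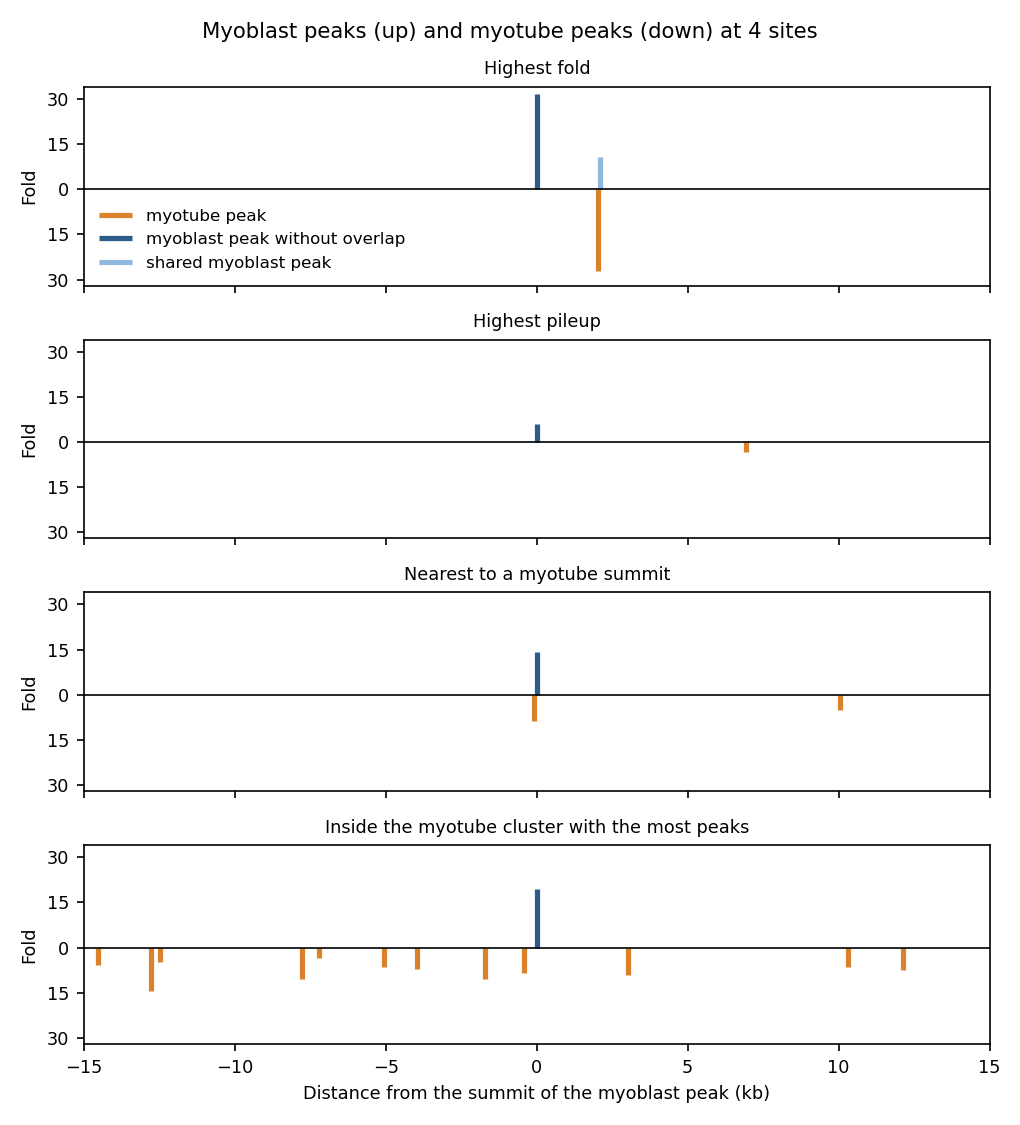
Called peaks around 4 myoblast peaks without a myotube overlap, by distance from its summit (horizontal axis, kb); bars up give the fold of the myoblast peak and any shared myoblast peak, and bars down that of myotube peaks, from lists called separately. The peak of highest fold (31.55) has a myotube peak of fold 27.07 at 2030 bp, the peak of most reads (38) has 1 of fold 3.33 at 6920 bp, and the peak in the cluster of 21 has 12 myotube peaks within 15 kb.

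Peaks without an overlap hardly grouped with each other. Joined at 12 kb, 6 of 397 (1.51%) formed 3 groups of 2, whereas 18 of 101 shared peaks formed 6 groups of up to 4. Most of these 18 lay at 3 loci with raised background. These were chr2:98502694-98507455 (136 to 192 reads), chr17:39979963-39985751 (9.41 to 35.9 reads) and chr9:3000368-3032513 (6 peaks, 21.5 to 100.4 reads). The difference in grouping was not tested. The closest 2 lay at chr2:127701642-127701717 (8 reads) and from 127703470 to 127703545 (11 reads), with 1752 bp between them. The others lay on chromosome 1 at 85268164 and 85274960 (10 and 11 reads, 6720 bp apart) and on chromosome 11 at 102993667 and 103002915 (8 and 10 reads, 9172 bp apart). All 6 had the smallest width. On chromosome 11 each of the 2 had its own myotube neighbour, at 665 bp (fold 35.78) and 315 bp (fold 17.44).

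Only 2 peaks of the set had a shared myoblast peak within 12 kb. The first was the chromosome 8 peak of highest fold. The other lay at chr4:118220008-118220083 (fold 14.5, 13 reads), 341 bp from the summit of a shared peak from 118220311 to 118220391 (fold 31.18, 17 reads).

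The set was unevenly spread over the chromosomes. Its mean density was 0.155 peaks per Mb of the span between the first and last listed peak. Chromosome 11 had the highest density at 2.18 times that mean (40 peaks, exact Poisson 95% interval 1.55 to 2.96), followed by chromosomes 10 (40 peaks, 2.03 times, 1.45 to 2.77) and 17 (29 peaks, 2.03 times, 1.36 to 2.92). Chromosome 7 had the lowest at 0.216 times (5 peaks, 0.0701 to 0.504), then chromosomes 18 (5 peaks, 0.368 times, 0.120 to 0.859), 9 (7 peaks, 0.373 times, 0.150 to 0.769) and X (10 peaks, 0.400 times, 0.192 to 0.735). Chromosomes 14 (8 peaks) and 12 (9 peaks) also had intervals below the mean, and the other 11 chromosomes had intervals that held it.

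The order of chromosomes resembled that of all myotube peaks, with larger swings. The set's densities rested on 5 to 40 peaks per chromosome, against 774 to 3801 myotube peaks, so they carried much more counting error. Across the 20 chromosomes the relative densities had Pearson r = 0.81 and Spearman rho = 0.86, and 17 lay on the same side of the mean in both. This is a description, as both series lie on the same chromosomes. Their mappable length, gene content and base composition were not measured, and no cause of the likeness was tested. On chromosome 17 the set stood at 2.03 times its mean and myotube peaks at 1.15 times (1.10 to 1.20). On chromosome 7 the values were 0.216 and 0.699 (0.667 to 0.731), and on chromosome 9 they were 0.373 and 0.894 (0.854 to 0.935), with intervals that did not overlap in each of these 3 cases. On chromosome X they were 0.400 and 0.270 (0.252 to 0.290), and there the intervals overlapped, as they did on all remaining chromosomes.

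The share of nuclear myoblast peaks without a myotube overlap also varied by chromosome, within wide intervals. It was lowest on chromosome 9 (7 of 15, 46.7%, Wilson interval 24.8% to 69.9%) and highest on chromosome 7 (5 of 5, interval from 56.6%) and chromosome 5 (29 of 31, 93.5%, 79.3% to 98.2%). On chromosome 9 the 8 shared peaks stood at 1.68 times their own mean density (0.724 to 3.31), while the set was at 0.373 times. Of these 8, 6 lay in the 32.1 kb of chr9:3000368-3032513, all with raised background (21.5 to 100.4 reads). Without those 6, a comparison chosen after seeing the data, the share without an overlap was 7 of 9 (77.8%, 45.3% to 93.7%) and the 2 remaining shared peaks stood at 0.446 times their mean density (0.0540 to 1.61). The low share on chromosome 9 rested on that locus.

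**Figure D5:**
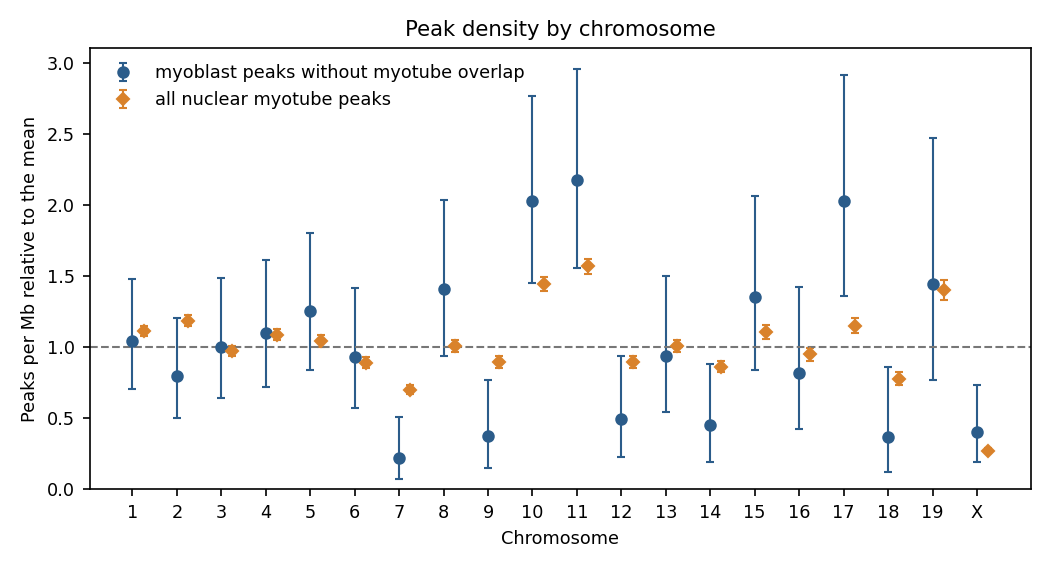
Peaks per Mb relative to the mean over all nuclear chromosomes (vertical axis) for each chromosome (horizontal axis), for the 397 myoblast peaks without a myotube overlap (blue circles) and all 45454 nuclear myotube peaks (orange diamonds); lines are exact Poisson 95% intervals and the dashed line is the mean. Both series are high on chromosomes 10 and 11 and low on chromosomes 7, 18 and X. The blue points, which rest on 5 to 40 peaks each, range farther, from 0.216 to 2.18.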

How the data were processed

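FoxO3 ChIP-seq peak lists of 1 myoblast and 1 myotube library were used as the authors deposited them. Per the submitters' processing notes MACS2 2.1.0 and mouse build mm9 were used; aligner, control library, duplicate handling and threshold: not given in the sources used here. The layout is narrowPeak, per the file headers: the deposited fold is a linear ratio over local background, p- and q-values are given as −log10, and in 100% of rows the authors' score equals 10 × that q-value term without its decimals. Summit offsets in bp are the authors'. Peak values serve to describe and rank within a list. The lists carry no read counts and the depth is unknown.

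Pileup and background were recovered as the whole read number whose Poisson tail matched each fold and p-value (tolerance 0.02, log10 scale), for 501 of 501 myoblast and 45452 of 45457 myotube peaks. On simulated peaks 1000 of 1000 pileups were recovered with the backgrounds of each list, and 200 of 200 planted overlaps and 50 of 50 planted clusters were found. The simulated p-values were made with the same Poisson formula that the recovery inverts. These checks therefore cover the arithmetic only, not whether the caller's own values follow that formula. A background over 3 times the floor is called raised, and peaks at most 12 kb apart were joined into clusters. Coordinates are mm9, counted from 1. Shares carry Wilson 95% and counts exact Poisson 95% intervals, for counting error only. Named peaks are the 10 of highest fold, the 5 widest, the 5 nearest to and 5 farthest from a myotube summit, those in clusters of 20 or more, with raised background or joined to another, and 3 on each side of the rule's limit. The set, the lists and the measures were chosen with earlier results of these data known. The gene and promoter tables at hand are for another build (GRCm38.p6), so gene names, gene positions, sequences and motifs are not reported here. Alternatives were other overlap rules, q-value thresholds, joining distances, edge distances, and leaving out raised background or the smallest width. Software was scipy 1.17.1, pandas 2.3.3, numpy 2.4.6 and matplotlib 3.10.9 under Python 3.11.15.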

Additional observations from a re-analysis of the deposited data

How the results depend on the processing

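Of 50 alternative values, 31 stayed within the 95% interval (shares, medians and densities) or within 1.5 times (counts) of the reported value and 19 moved, among them the 2 for chromosome 9 given above, chosen after seeing the data. No share reported against another was tested, since there is 1 library per time point, and 6 to 12 reads stand behind nearly every peak. The share of nuclear myoblast peaks without a myotube match was 92.8% when an overlap of 50% of both peaks was required, 65.7% when no myotube peak was allowed within 1000 bp and 84.1% against the myotube peaks whose −log10 q-value reached 10. For myoblast peaks whose −log10 q-value reached 5 it was 65.0% (104 peaks of 160), where the median fold was 22.53, the median pileup 10 reads and the median distance 13162.5 bp. At 3 or more the median pileup was 9 reads. Leaving out the smallest width left 0% of it by construction and a median of 9 reads. With no myotube peak within 1000 bp the median distance was 14122 bp and 38.2% lay within 10 kb, which the filter raises or lowers by construction. The share inside myotube clusters of 3 or more was 2.77% with joining at 5 kb and 23.7% at 25 kb. Members of the set joined to each other numbered 14 at 25 kb and 37 at 100 kb. Leaving out raised background moved none of the values it was run on. At floor background the −log10 q-value was 4.97 at 9 reads and 6.26 at 10 reads. A threshold of 5 there raises the pileup and fold by construction. A longer joining distance also lengthens clusters and joins more peaks by construction. The cause of the remaining moves was not tested. Gene positions, sequence and motifs were left out because no mm9 reference was used. No paired analysis was possible because there is 1 library at each time.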
